A study of Homo sapiens with 16 samples.

Results

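Of 16 libraries, 4 were compared here: 2 of untreated U2OS cells with stable knockdown of both PIP4K2A and PIP4K2B, and 2 of untreated U2OS cells with stable knockdown of PIP4K2A alone. They were taken by their sample titles and genotype labels. U2OS is a human sarcoma line of bone origin, and every library of the study came from it. The study measured RNA in 8 groups of 2 libraries to ask how the PIP4K kinases affect gene expression and splicing: the double knockdown, the PIP4K2A knockdown, the PIP4K2B knockdown and the empty plko.puro vector, each untreated or collected 6 h after 30 J/m2 of UV-C light. All cells were kept in puromycin, and the RNA was depleted of ribosomal RNA before directional libraries were made.

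The 4 libraries held 30.25 and 29.04 M expected counts for the double knockdown and 31.89 and 28 M for the PIP4K2A knockdown. The knockdowns are described as stable; whether a line was 1 clone, how the double line was derived and the hairpin sequences are not stated in the labels. The only control vector was an empty one; a hairpin that targets no gene was not among the libraries. Loss of the PIP4K2B product, other effects of its hairpin and differences between independently grown lines cannot be told apart in this comparison. The labels also do not say whether replicates were separate cultures. The p-values measure only the spread between replicate libraries, pooled over the 15 libraries of the fit, which may be technical. The free-text description of all 16 libraries reads wild type, and groups were therefore taken from the genotype field.

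PIP4K2A, PIP4K2B and PIP4K2C encode the type II phosphatidylinositol phosphate kinases, which phosphorylate phosphatidylinositol 5-phosphate to phosphatidylinositol 4,5-bisphosphate. Their substrate is a scarce lipid found at the plasma membrane, on endosomes and in the nucleus. PIP4K2B is the isoform best known in the nucleus, where nuclear phosphatidylinositol 5-phosphate changes in cells under stress. The family is also known for links to insulin and mTORC1 signalling and to autophagy.

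PIP4K2B (ENSG00000276293; GRCh38 chromosome 17, 38765689 to 38800126, minus strand), the gene that only the double knockdown targets in this pair, had 17.3 and 19.3 CPM (counts scaled to library size) in the double knockdown, against 96.9 and 98.3 CPM in the PIP4K2A knockdown. It fell by 2.40 on the log2 scale (SE 0.106; edgeR's quasi-likelihood test, Benjamini-Hochberg adjusted p = 1.50e-07). The PIP4K2B knockdown had 26.6 and 23.7 CPM and the empty vector 107 CPM. PIP4K2A (ENSG00000150867), targeted in both groups, had 22.9 CPM in each double knockdown library, against 18.2 and 15.5 CPM in the PIP4K2A knockdown. That is 0.46 higher in the double knockdown on the log2 scale (SE 0.0945; edgeR adjusted p = 0.0112), and both groups lay far under the 62.9 CPM of the empty vector. PIP4K2C, the third member of the family and the target of no hairpin, had 101 and 108 CPM in the double knockdown, against 82.8 and 77.2 CPM in the PIP4K2A knockdown. Its log2 fold change was 0.40 (SE 0.096; edgeR adjusted p = 0.0244). The groups did not overlap for any of the 3 genes, which held for 48.7% of all tested genes too. The call for PIP4K2C was lost when any 1 of the 4 libraries was left out, and that for PIP4K2A without either double knockdown library or without the second PIP4K2A knockdown library; both were lost when libraries were scaled to ribosomal protein genes. The call for PIP4K2B was kept in each of these fits.

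Of 22597 genes tested, 1604 (7.1%) differed at an adjusted p under 0.05, 798 (3.53%) higher and 806 (3.57%) lower in the double knockdown. The median log2 fold change of all tested genes was -0.01, and that of the size of the called changes was 0.63. At least 2-fold changes were found for 382 genes, 167 higher and 215 lower, and at least 4-fold changes for 93, of which 64 were lower. The 2 double knockdown libraries lay both above or both below the PIP4K2A knockdown libraries for all 1604 called genes, and for 48.7% of all tested genes. The count rested on the libraries used: it was 664 and 583 without the first and second double knockdown library, 739 and 1252 without the first and second PIP4K2A knockdown library, and 21 when 1 aberrant empty-vector library of another group was added to the fit. Of the called genes, 728 higher and 681 lower ones were protein-coding; 9.2% of the protein-coding genes tested were called, against 4.27% of lincRNA and 2.48% of antisense genes.

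Clone names, LINC numbers and pseudogenes were not named, and the rankings of rises and falls below leave them out. Among the other genes past the test and averaging at least 5 CPM over the 4 libraries, MAGEA10 rose most. MAGEA10 (ENSG00000124260, GRCh38 chromosome X, 152133310 to 152138578, minus strand) is a cancer-testis antigen gene that most adult tissues keep silent. It had 28.2 and 27.8 CPM in the double knockdown, against 0.659 and 0.786 CPM in the PIP4K2A knockdown, a log2 fold change of 5.29 (SE 0.169; edgeR adjusted p = 6.49e-09). The other untreated libraries were as low as the PIP4K2A knockdown, at 0.759 and 0.528 CPM in the PIP4K2B knockdown and 0.699 CPM in the empty vector. After UV the double knockdown again stood alone, with 33.3 and 31.9 CPM against 1.07 and 0.937 CPM in the PIP4K2A knockdown, while the PIP4K2B knockdown and the vector after UV lay between 0.727 and 1.22 CPM.

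HEPH, a membrane copper oxidase that oxidises iron for export, had 13.5 and 12.2 CPM in the double knockdown, against 2.85 and 2.5 CPM in the PIP4K2A knockdown (log2 fold change 2.27, SE 0.158; edgeR adjusted p = 5.78e-06). LRRC32, which holds latent TGF-beta at the cell surface, had 7.87 and 9.16 CPM in the double knockdown, against 1.88 and 2.21 CPM in the PIP4K2A knockdown (log2 fold change 2.07). CCBE1, a secreted protein required for the growth of lymphatic vessels, had 93.2 and 93.6 CPM in the double knockdown, against 22.9 and 24.1 CPM in the PIP4K2A knockdown (log2 fold change 2.00, SE 0.0926). CNTNAP2, a neurexin-like adhesion protein of axons, had 99.7 and 95.2 CPM in the double knockdown, against 28.2 and 24.9 CPM in the PIP4K2A knockdown (log2 fold change 1.89). MOB3B, of the MOB family of kinase adaptors, had 232 and 207 CPM in the double knockdown, against 65.2 and 61.3 CPM in the PIP4K2A knockdown (log2 fold change 1.81). In the empty vector, HEPH, LRRC32 and CCBE1 lay between the groups, at 5.87, 4.75 and 49.2 CPM, whereas CNTNAP2 and MOB3B were lower than in either, at 24.3 and 34.4 CPM.

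The other 6 of the 12 largest rises had log2 fold changes from 1.75 to 2.20. TMC5 belongs to the transmembrane channel-like family and had 12.5 and 12.3 CPM in the double knockdown, against 2.82 and 2.61 CPM in the PIP4K2A knockdown. FOXS1, a forkhead transcription factor, had 34.8 and 32.9 CPM in the double knockdown, against 8.37 and 10.4 CPM in the PIP4K2A knockdown. The long non-coding RNA MIAT had 53.9 and 53.7 CPM in the double knockdown, against 14.7 and 15.4 CPM in the PIP4K2A knockdown. GALNT15, an enzyme that starts O-linked sugar chains, LRRC17, a secreted leucine-rich repeat protein, and PSG5 rose by 1.93, 1.75 and 1.85 on the log2 scale. PSG5 belongs to the pregnancy-specific glycoproteins, whose close copies can share reads, so its count is uncertain.

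**Figure D1:**
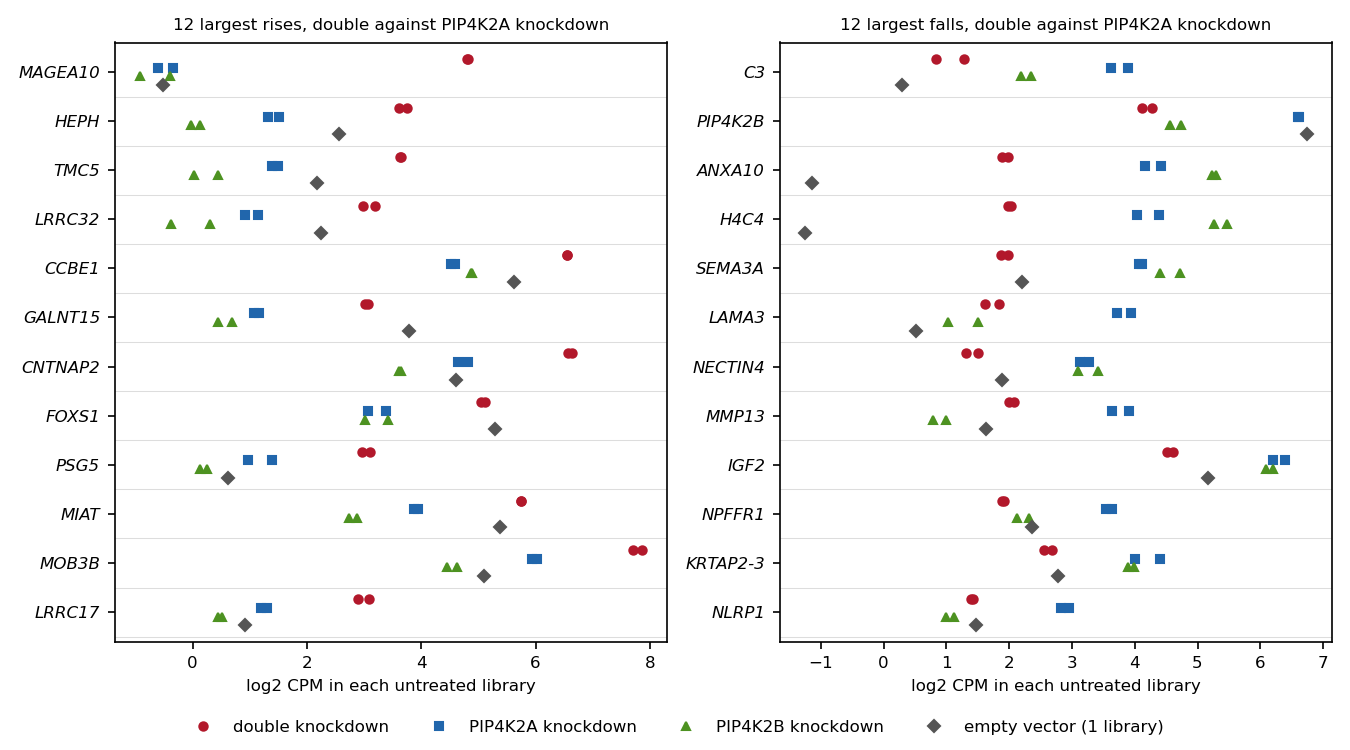
log2 CPM of the 12 largest named rises (left) and 12 largest named falls (right) in each untreated library, with 1 point per library. The 2 double knockdown libraries lie apart from the 2 PIP4K2A knockdown libraries for every gene shown, by which the genes were chosen; MAGEA10 is high in the double knockdown alone, and ANXA10 and H4C4 are lower in the empty vector than in the double knockdown.

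Under the same rule for naming and with a mean of at least 5 CPM, the largest fall was that of C3, the central component of complement. It had 1.79 and 2.44 CPM in the double knockdown, against 12.3 and 14.8 CPM in the PIP4K2A knockdown (log2 fold change -2.67, SE 0.259; edgeR adjusted p = 7.25e-05). SEMA3A, a secreted guidance cue that repels axons and acts on vessels and bone cells, had 3.64 and 3.93 CPM in the double knockdown, against 17.3 and 16.8 CPM in the PIP4K2A knockdown (log2 fold change -2.16). LAMA3, the alpha chain of an epithelial laminin, had 3.57 and 3.06 CPM in the double knockdown, against 15.3 and 13.2 CPM in the PIP4K2A knockdown (log2 fold change -2.09). The collagenase MMP13 had 4.2 and 3.99 CPM in the double knockdown, against 15 and 12.5 CPM in the PIP4K2A knockdown (log2 fold change -1.74). In the empty vector, C3, LAMA3 and MMP13 lay below both groups, at 1.22, 1.43 and 3.11 CPM. SEMA3A lay between them there, at 4.61 CPM. The absence of overlap in these genes was part of how they were chosen, and 48.7% of all tested genes had none.

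IGF2, the growth factor expressed in the fetus and in many sarcomas, had 24.4 and 22.8 CPM in the double knockdown, against 73.4 and 84 CPM in the PIP4K2A knockdown (log2 fold change -1.73, SE 0.181; edgeR adjusted p = 0.000123). The empty vector lay between them, at 36.1 CPM. ANXA10, an annexin, had 3.97 and 3.68 CPM in the double knockdown, against 21.3 and 18 CPM in the PIP4K2A knockdown (log2 fold change -2.35). The same gene had 37.7 and 39.2 CPM in the PIP4K2B knockdown and 0.454 CPM in the empty vector, so the double knockdown lay between the vector and both single knockdowns. The histone gene H4C4 had the same order, with 3.93 and 4.1 CPM in the double knockdown, against 16.4 and 20.9 CPM in the PIP4K2A knockdown. It had 38.4 and 44.3 CPM in the PIP4K2B knockdown and 0.419 CPM in the empty vector. Histone genes have near-identical copies that can share reads, so the share of H4C4 itself is uncertain. NECTIN4, an adhesion molecule, NPFFR1, a neuropeptide receptor, NLRP1, an inflammasome sensor, and KRTAP2-3, a hair keratin-associated gene with close copies, fell by 1.78, 1.68, 1.48 and 1.58.

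All 24 of these genes stayed past the test when any 1 of the 4 libraries was left out, and with DESeq2, with the other scalings and with the other filters. With the aberrant empty-vector library in the fit, 5 of the 12 rises and 4 of the 12 falls did.

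The counts for gene lists stand against shares over all tested genes of 3.53% higher and 3.57% lower, and against 10.6% called in either direction among genes averaging 5 CPM or more. Of the 45 tested genes for phosphoinositide kinases and phosphatases, 6 rose and 3 fell (20%), with a median log2 fold change of 0.12. The number of rises was 1 and 2 without the first and second double knockdown library, 4 and 2 without the first and second PIP4K2A knockdown library, and 3 with ribosomal protein scaling, while 3 genes fell in each of these fits. Apart from PIP4K2B, the fall was largest for INPP5D (SHIP1), a 5-phosphatase of phosphatidylinositol 3,4,5-trisphosphate. It had 5.69 and 5.54 CPM in the double knockdown, against 14.2 and 14.5 CPM in the PIP4K2A knockdown (log2 fold change -1.34, SE 0.145; edgeR adjusted p = 0.00015). INPP4B, which removes the 4-phosphate from phosphatidylinositol 3,4-bisphosphate, had 75.1 and 70.6 CPM in the double knockdown, against 51.4 and 46.8 CPM in the PIP4K2A knockdown (log2 fold change 0.58). SYNJ2, a synaptojanin phosphatase, had 65.2 and 65.6 CPM in the double knockdown, against 98.3 and 96.9 CPM in the PIP4K2A knockdown (log2 fold change -0.57). SYNJ2 lies on chromosome 6 between 150 and 160 Mb, where 12 of 36 genes were lower and 1 was higher. PIP4P2, a phosphatase of phosphatidylinositol 4,5-bisphosphate, and PIK3C2B, a class II PI 3-kinase, were among the other rises, by 0.52 and 0.43.

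Of 26 genes for mTORC1, AKT and insulin signalling, 3 rose and 0 fell (11.5%, near the 10.6% of genes averaging 5 CPM or more; median log2 fold change 0.12). The number of rises was 1 with ribosomal protein scaling, 1 without the first double knockdown library and 2 without any other 1 of the 4 libraries. SESN3, a sestrin that restrains mTORC1 and is a target of FOXO factors, had 150 and 132 CPM in the double knockdown, against 74.8 and 62.2 CPM in the PIP4K2A knockdown (log2 fold change 1.05, SE 0.152; edgeR adjusted p = 0.00109). RHEB, the GTPase that activates mTORC1, rose by 0.56, and lost its call without the first double knockdown library or the second PIP4K2A knockdown library. Of 17 FOXO factors and targets, SESN3, CITED2 (0.70) and FOXO4 (0.61) rose and 0 fell (17.6%), with a median of 0.14. FOXO4 lost its call when any 1 of the 4 libraries was left out. The lysosome and autophagy list had 2 rises and 4 falls of 42 (14.3%) with a median of 0.08. There, the protease gene CTSL had 138 and 144 CPM in the double knockdown, against 75.2 and 77.3 CPM in the PIP4K2A knockdown (log2 fold change 0.90), while the protease gene CTSB fell by 0.42.

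For cholesterol synthesis and SREBP targets, 3 of 29 rose and 0 fell (10.3%, near the same 10.6%; median 0.15). The number was 1 without the second double knockdown library, and 2 without the first double or the first PIP4K2A knockdown library, with the replicate block and in a fit of these groups alone. INSIG1, which retains the SREBP complex in the endoplasmic reticulum, had 57.7 and 57.2 CPM in the double knockdown, against 28.7 and 29.7 CPM in the PIP4K2A knockdown (log2 fold change 0.99, SE 0.118; edgeR adjusted p = 0.0003). The desaturase SCD and the factor SREBF2 were 0.40 and 0.37 higher. Both INSIG1 and RHEB lie on the end of chromosome 7 described further on, where all 29 genes had a fold change above 0. Of 48 nuclear genes of oxidative phosphorylation, 25 hnRNP genes and 18 heat shock chaperones, 0 passed the test.

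Of 32 genes for G2/M and mitosis, 11 fell and 0 rose (34.4%), with a median log2 fold change of -0.25, and 31 of the 32 had a fold change below 0, against 50.1% of all genes tested. Their summed level ran from 6373 to 6505 CPM in the double knockdown and from 7495 to 8223 CPM in the PIP4K2A knockdown. UBE2C, which hands ubiquitin to the anaphase-promoting complex, had 97.6 and 91 CPM in the double knockdown, against 161 CPM in each PIP4K2A knockdown library (log2 fold change -0.76, SE 0.0875; edgeR adjusted p = 0.000214). AURKA, a spindle kinase, had 90.2 and 95.9 CPM in the double knockdown, against 145 and 147 CPM in the PIP4K2A knockdown (log2 fold change -0.63). TOP2A, the mitotic topoisomerase, had 585 and 554 CPM in the double knockdown, against 927 and 748 CPM in the PIP4K2A knockdown (log2 fold change -0.54). HMMR, a spindle-associated protein, had 51.3 and 45 CPM in the double knockdown, against 76.8 and 58.9 CPM in the PIP4K2A knockdown (log2 fold change -0.48). The HMMR call was marginal (SE 0.134, edgeR adjusted p = 0.0495). In the 1 untreated vector library used, UBE2C, AURKA and TOP2A lay between the groups, at 105, 104 and 672 CPM. HMMR lay below both there, at 36.7 CPM. For the PIP4K2B knockdown against the vector, the median of the list was 0.34. UBE2C, AURKA and TPX2 lie on chromosome 20, where the median of all genes was -0.18; the part of this in their falls was not tested.

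The number of falls in this list was 2 and 3 without the second and first double knockdown library, 4 and 9 without the first and second PIP4K2A knockdown library, and 4 with ribosomal protein scaling. The median stayed between -0.20 and -0.30 under these settings. In RNA from whole cultures, fewer cells in mitosis and less of these RNAs per cell cannot be told apart. Of 36 genes for G1/S and DNA replication, 1 rose and 2 fell (8.33%, against 7.1% of all tested genes, median 0.04). Their summed level was 4883 to 4918 CPM in the double knockdown and 4932 to 4937 CPM in the PIP4K2A knockdown.

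Promoters of genes that peak in G2 and M are known for the cell cycle homology element and for CCAAT boxes. The 2 windows shown are those of the HMMR and TOP2A promoters, from RefSeq on GRCh38.p14, of 300 bases each, from 250 before to 50 after the start site. The HMMR window lies inside the gene as GENCODE 29 has it (chromosome 5, 163460203 to 163491945), while the count is of the whole gene. Capitals mark TTTGAA, 1 form of the cell cycle homology element, and CCAAT, on either strand, so that the reverse strand reads TTCAAA and ATTGG.
HMMR (chr5:163460382-163460681, plus strand): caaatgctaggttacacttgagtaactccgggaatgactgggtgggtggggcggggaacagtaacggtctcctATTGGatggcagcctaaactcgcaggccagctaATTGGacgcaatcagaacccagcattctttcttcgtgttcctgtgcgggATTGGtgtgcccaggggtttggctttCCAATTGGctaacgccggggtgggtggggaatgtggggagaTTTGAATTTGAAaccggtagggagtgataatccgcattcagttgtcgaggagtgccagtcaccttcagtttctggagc
TOP2A (chr17:40417847-40418146, minus strand): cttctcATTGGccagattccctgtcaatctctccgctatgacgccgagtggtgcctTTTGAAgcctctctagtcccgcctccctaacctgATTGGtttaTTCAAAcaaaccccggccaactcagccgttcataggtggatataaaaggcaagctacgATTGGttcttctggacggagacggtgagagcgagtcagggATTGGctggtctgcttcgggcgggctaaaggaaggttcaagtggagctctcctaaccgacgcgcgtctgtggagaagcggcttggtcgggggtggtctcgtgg
HMMR held TTTGAA at 2 adjoining places, whose first bases lay 28 and 22 bases before the start site, and 5 CCAAT boxes. TOP2A held 2 copies of TTTGAA and 4 of CCAAT. Of 26 genes of the list with a window in the RefSeq table, 17 (65.4%) held TTTGAA, against 15.2% of all 35116 windows, and 22 (84.6%) held CCAAT, against 34.6%. A listed gene counted when any of its windows matched, whereas the share over all windows counts each window singly. The list and background shares are thus not of the same kind. A match describes letters in a window, not a bound site.

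**Figure D2:**
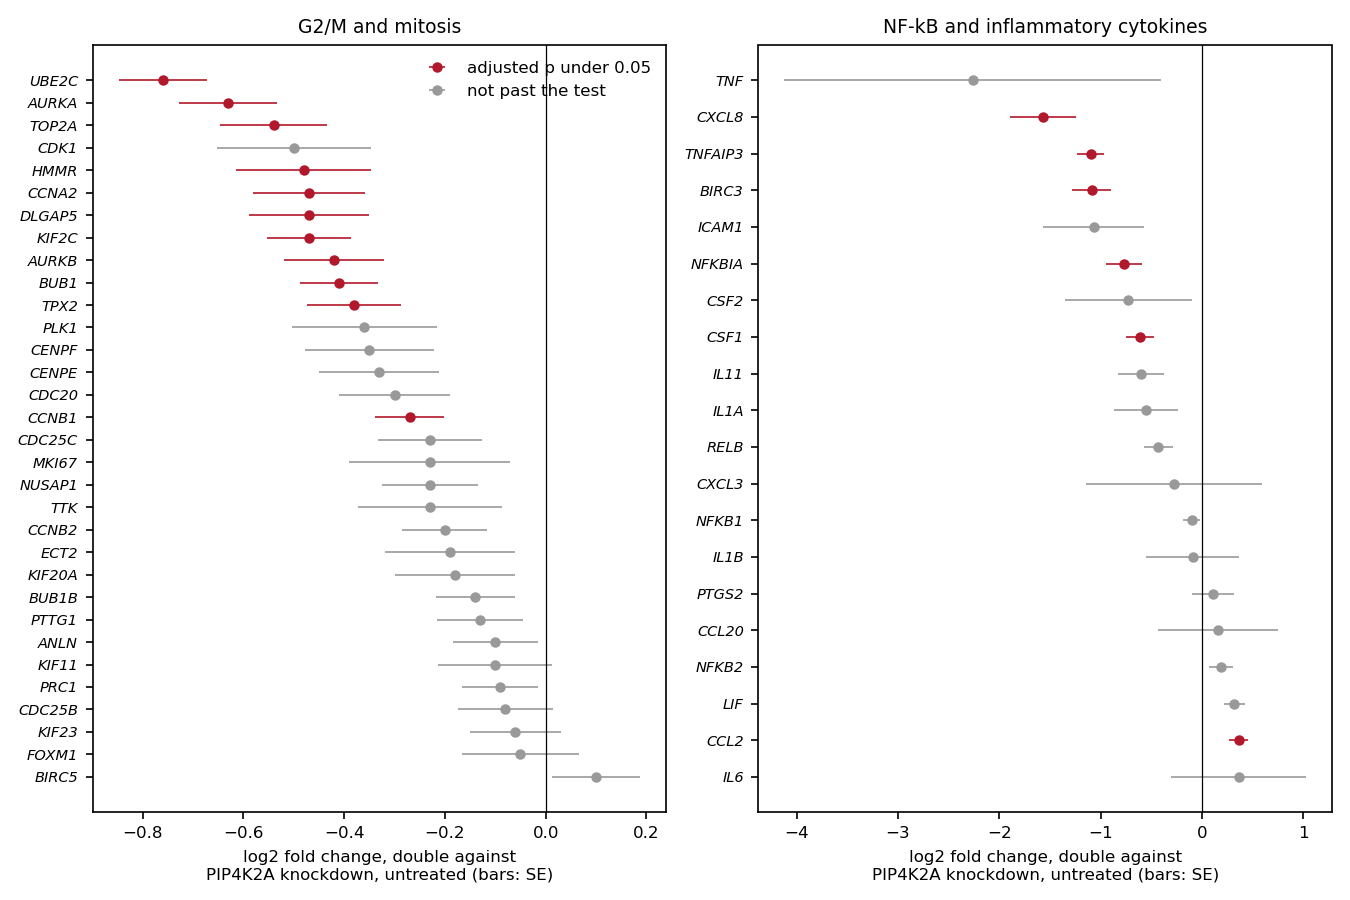
log2 fold change (double against PIP4K2A knockdown, untreated) of each tested member of the lists for G2/M and mitosis (left) and for NF-kB and inflammatory cytokines (right), with bars for the standard error. In the left panel 31 of 32 points lie below 0, and in the right panel 14 of 20.

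Of 20 tested genes for NF-kB and inflammatory cytokines, 5 fell and 1 rose (30%), with the lowest median of the 33 lists, -0.49. Of all tested genes 7.1% were called, and of those averaging 5 CPM or more 10.6%. The chemokine CXCL8 was barely expressed, at 0.231 and 0.207 CPM in the double knockdown, against 0.69 and 0.643 CPM in the PIP4K2A knockdown (log2 fold change -1.57, SE 0.322; edgeR adjusted p = 0.0105). TNFAIP3 (A20), which ends NF-kB signalling, had 5.49 and 5.06 CPM in the double knockdown, against 10.9 and 11.9 CPM in the PIP4K2A knockdown (log2 fold change -1.10, SE 0.131). BIRC3, an inhibitor of apoptosis in the TNF receptor complex, had 3.01 and 2.65 CPM in the double knockdown, against 6.99 and 5.18 CPM in the PIP4K2A knockdown (log2 fold change -1.09). NFKBIA, the inhibitor that holds NF-kB in the cytoplasm, had 16.7 and 19.2 CPM in the double knockdown, against 29.1 and 32.5 CPM in the PIP4K2A knockdown (log2 fold change -0.77). In the 1 untreated vector library used, CXCL8, TNFAIP3 and BIRC3 lay below both groups, at 0.175, 3.67 and 2.41 CPM. NFKBIA lay between them, at 22.6 CPM. For the PIP4K2B knockdown against the vector, the median of the list was 0.73. CSF1, a macrophage growth factor, fell by 0.61. CCL2, a chemokine, was the 1 rise, at 0.36, and the list had 0 rises when any 1 library was left out, with ribosomal protein scaling, without a count filter, with the replicate block and in a fit of these groups alone. Of CXCL8, TNFAIP3, BIRC3 and NFKBIA, TNFAIP3 alone stayed past the test in every fit that left out 1 library; the number of falls was then 1 to 3. The summed level of the list, 270 to 272 CPM in the double knockdown and 265 to 293 CPM in the PIP4K2A knockdown, overlapped between the groups.

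Promoters of NF-kB target genes are known for sites of that factor, often beside AP-1 sites. The windows of 3 genes of the list that fell are shown, with 1 of LAMA3, added for its AP-1 letters. The LAMA3 window lies inside the gene as GENCODE 29 has it (chromosome 18, 23689443 to 23956222), at an internal start site, while the count is of the whole gene. All 4 windows are the entries of RefSeq on GRCh38.p14. Capitals mark GGAANNTCC, a form of the NF-kB site whose letters were chosen with these windows in view, in the first 3, and TGANTCA, the AP-1 site, in the last 2, on either strand.
NFKBIA (chr14:35404700-35404999, minus strand): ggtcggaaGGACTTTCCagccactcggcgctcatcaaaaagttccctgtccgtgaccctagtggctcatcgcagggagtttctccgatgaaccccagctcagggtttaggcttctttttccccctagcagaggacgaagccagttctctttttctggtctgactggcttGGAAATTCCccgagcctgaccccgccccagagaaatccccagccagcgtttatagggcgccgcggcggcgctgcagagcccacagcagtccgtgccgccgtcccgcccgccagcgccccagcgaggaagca
TNFAIP3 (chr6:137867009-137867308, plus strand): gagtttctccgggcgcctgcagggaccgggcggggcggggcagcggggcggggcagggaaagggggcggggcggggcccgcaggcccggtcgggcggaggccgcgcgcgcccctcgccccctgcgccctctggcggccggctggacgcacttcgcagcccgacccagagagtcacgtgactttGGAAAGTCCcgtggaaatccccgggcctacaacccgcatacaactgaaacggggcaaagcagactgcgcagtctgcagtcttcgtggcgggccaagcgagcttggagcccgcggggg
CXCL8 (chr4:73740319-73740618, plus strand): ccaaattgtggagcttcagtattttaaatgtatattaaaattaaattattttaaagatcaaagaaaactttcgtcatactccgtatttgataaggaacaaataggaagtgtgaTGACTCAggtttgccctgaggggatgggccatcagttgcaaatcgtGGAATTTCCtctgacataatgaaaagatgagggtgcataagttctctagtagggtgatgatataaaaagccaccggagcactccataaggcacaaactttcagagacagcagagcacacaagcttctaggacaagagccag
LAMA3 (chr18:23872770-23873069, plus strand): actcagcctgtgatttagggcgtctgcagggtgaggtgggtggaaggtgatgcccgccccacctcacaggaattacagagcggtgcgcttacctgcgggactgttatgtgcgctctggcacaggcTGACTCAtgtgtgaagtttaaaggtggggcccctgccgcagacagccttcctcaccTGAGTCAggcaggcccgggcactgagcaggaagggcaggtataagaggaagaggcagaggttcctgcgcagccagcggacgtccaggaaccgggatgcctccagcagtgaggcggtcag
The first base of the match nearest to the start site lay 81 bases before it in NFKBIA, 67 in TNFAIP3 and 91 in CXCL8. Of 16 genes of the list with a window, called or not, 9 (56.2%) held GGAANNTCC, against 4.56% of all windows. The 3 genes of the list shown are among those 16, and the letters were chosen with their windows in view. The shares therefore cannot measure an excess. Here too a listed gene counted when any of its windows matched, unlike the share over single windows. TGANTCA, found in 7.71% of all windows, occurred once in CXCL8 and at 2 places in LAMA3.

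Immediate early genes and AP-1 subunits gave 6 falls and 0 rises of 30 (20%), with a median log2 fold change of -0.02. The shares called over all tested genes and over those averaging 5 CPM or more were 7.1% and 10.6%. FOSL1, an AP-1 subunit, had 30.2 and 28.4 CPM in the double knockdown, against 53.7 and 58 CPM in the PIP4K2A knockdown (log2 fold change -0.92, SE 0.203; edgeR adjusted p = 0.0157). EGR1, a serum-induced zinc finger factor, had 31.8 and 34.1 CPM in the double knockdown, against 49.5 and 57.4 CPM in the PIP4K2A knockdown (log2 fold change -0.69). KLF2 and EGR2, factors of the same early class, fell by 1.14 and 1.90 at low levels, and FOS and KLF6 by 0.66 and 0.35. KLF2 stayed past the test whichever library was left out, whereas FOSL1, EGR1 and EGR2 each lost the call without at least 1 library, and the count of falls was then 1 to 4.

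Genes of the matrix moved in both directions. Of 25 collagen chains, 6 rose and 3 fell (36%). The share called was 7.1% over all tested genes and 10.6% over those averaging 5 CPM or more. COL8A1, a short-chain collagen, had 100 and 104 CPM in the double knockdown, against 39 and 36.5 CPM in the PIP4K2A knockdown (log2 fold change 1.45, SE 0.0889; edgeR adjusted p = 2.31e-06). COL4A4, a chain of the kidney and cochlear basement membrane, had 26.5 and 24.8 CPM in the double knockdown, against 9.53 and 7.43 CPM in the PIP4K2A knockdown (log2 fold change 1.61). The fibrillar chains COL3A1, COL5A2, COL11A2 and COL11A1 rose by 1.14, 0.95, 0.95 and 0.67, while COL4A1, COL6A3 and COL13A1 fell by 0.51, 0.58 and 0.66. Of 40 other matrix genes, 6 rose and 7 fell (32.5%). The cross-linking enzyme LOXL1 had 107 and 105 CPM in the double knockdown, against 49.9 and 56.6 CPM in the PIP4K2A knockdown (log2 fold change 1.00). The protease inhibitor TIMP1 had 208 and 225 CPM in the double knockdown, against 353 and 414 CPM in the PIP4K2A knockdown (log2 fold change -0.82). Integrins and cadherins gave 3 rises and 4 falls of 26 (26.9%), with PCDH7, CDH13 and CDH4 lower by 1.04, 0.95 and 0.89.

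In the insulin-like growth factor axis, 1 of 13 genes rose and 4 fell (38.5%). Of all tested genes 7.1% were called, and of those averaging 5 CPM or more 10.6%. Beside IGF2, the binding protein IGFBP4 had 12.6 and 16.5 CPM in the double knockdown, against 4.95 and 5.68 CPM in the PIP4K2A knockdown (log2 fold change 1.46, SE 0.18; edgeR adjusted p = 0.000377). The proteases PAPPA2 and PAPPA, which cleave such binding proteins, fell by 0.95 and 0.46, and IGFBP7 by 0.80. Of 25 TGF-beta and BMP genes, 2 rose and 4 fell (24%). INHBA, the subunit of activin A, had 60.9 and 59.3 CPM in the double knockdown, against 139 and 119 CPM in the PIP4K2A knockdown (log2 fold change -1.09, SE 0.0886, edgeR adjusted p = 1.74e-05). Of 18 NOTCH genes, 2 rose and 1 fell (16.7%). The ligand JAG1 fell by 0.76 with 40.2 and 43 CPM in the double knockdown, against 69.8 and 71.8 CPM in the PIP4K2A knockdown. LFNG and NOTCH3 were 0.49 and 0.44 higher, calls that were lost without either double knockdown library.

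YAP and TAZ targets had 2 rises and 2 falls of 19, with CCN2 at 137 and 131 CPM in the double knockdown, against 217 and 227 CPM in the PIP4K2A knockdown (log2 fold change -0.72), and its relative CCN1 higher by 0.48. WNT genes had 3 rises and 4 falls of 26, among them the inhibitor SFRP1 with 20.6 and 18.1 CPM in the double knockdown, against 41.3 and 36.5 CPM in the PIP4K2A knockdown, and NKD1, a feedback inhibitor, at -1.23. Guidance genes had 4 rises and 5 falls of 36, with SEMA3A and SEMA5A (-1.23) lower and NTN4 (0.77) and SEMA3F (0.67) higher. The p53 target list had 2 rises and 4 falls of 33 (18.2%, median -0.13), and the ATF4 and unfolded protein list 0 and 2 of 25 (8%). Glycolysis and hypoxia had 4 and 1 of 33 (15.2%), and complement and coagulation 3 and 4 of 23 (30.4%). Interferon-stimulated genes had 2 rises and 0 falls of 31 (6.45%). The YAP and TAZ, WNT and guidance lists had 21.1%, 26.9% and 25% called. Over all tested genes the share was 7.1%, and over those averaging 5 CPM or more 10.6%. The interferon and ATF4 lists lay near these shares. Of 37 SR proteins and splicing regulators, RBFOX2 alone passed the test, at 0.32. The medians for G1/S, WNT and neural genes changed sign with ribosomal protein scaling, and that for complement and coagulation with RLE size factors.

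**Figure D3:**
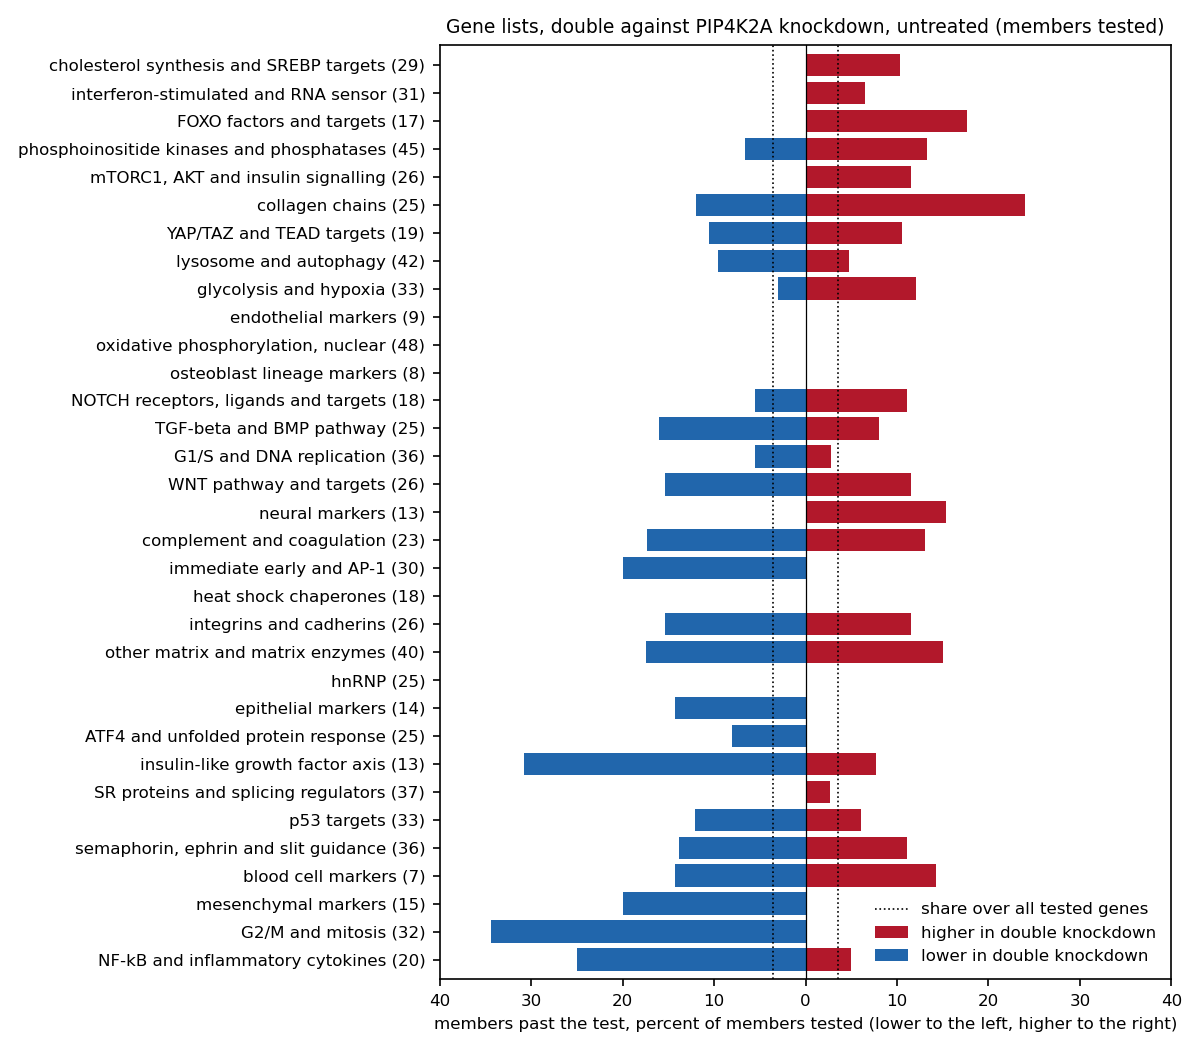
Share of the tested members of each list that passed the test higher (right) or lower (left) in the double knockdown, in percent; dotted lines give the shares over all tested genes (3.53% higher, 3.57% lower). Lists run from the highest median log2 fold change at the top to the lowest at the bottom, where the NF-kB and G2/M lists stand.

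The osteoblast marker RUNX2 had 60.1 and 58.2 CPM in the double knockdown and 55.9 and 56.5 CPM in the PIP4K2A knockdown, and COL1A1 had 2393 and 2678 CPM in the double knockdown and 2149 and 2560 CPM in the PIP4K2A knockdown. Of 8 tested osteoblast markers 0 passed the test, and DMP1 was at 0 in all 4 libraries. Blood cell markers summed to 11.8 to 11.9 CPM in the double knockdown and 10.5 to 10.7 CPM in the PIP4K2A knockdown, with CD3E, HBA1 and HBB at 0 in all 4 libraries; CD33 rose by 1.13 and CD8A fell by 1.43. Of 14 epithelial markers, CLDN1 and KRT14 fell by 1.03 and 0.79 (14.3% called). Of 15 mesenchymal markers, PRRX1, ACTA2 and PDGFRB fell by 0.87, 0.71 and 0.35 (20%). Of 13 neural markers, NCAM1 and NES rose by 0.75 and 0.69 (15.4%), and of 9 endothelial markers 0 passed. Over all tested genes the share called was 7.1%, and over those averaging 5 CPM or more 10.6%.

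Called genes were unevenly spread over the genome. Among 11855 genes with a mean of at least 5 CPM, 1251 (10.6%) were called, 662 (5.58%) higher and 589 (4.97%) lower. On chromosome 20 the share was 27.4%, with 11 genes higher and 79 lower of 328 and a median log2 fold change of -0.18. Of 258 regions of 10 Mb with at least 15 such genes, 14 had at least 30% of their genes called, a limit set after the values were seen. These 14 held 4.24% of the genes and 16.7% of the calls. On chromosome 7 from 150 to 160 Mb, 24 of 29 genes were called higher and 0 lower, and all 29 had a fold change above 0 (median 0.69). On chromosome 20 from 40 to 60 Mb, 49 of 106 genes were called lower and 0 higher, with medians of -0.36 and -0.46 in its 2 regions. On chromosome 3 up to 20 Mb, 35 of 75 genes were called lower and 1, GALNT15, higher. Of the falls given above, those of SEMA3A, CDH4 and PAPPA also lie in the 14 regions. The SEMA3A region, on chromosome 7 from 80 to 90 Mb, had 6 of 16 genes called lower and 1 higher. The CDH4 region, on chromosome 20 from 60 to 70 Mb, had 10 of 42 called lower and 3 higher. The part of the regions in these falls was not tested.

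The next 3 genes were chosen after their values were seen. In the chromosome 7 region, KCNH2, a potassium channel of the heart, had 30 and 30.2 CPM in the double knockdown, against 9.41 and 9.64 CPM in the PIP4K2A knockdown (log2 fold change 1.67), and the histone methyltransferase gene KMT2C had 147 and 145 CPM, against 95 and 85.7 CPM (log2 fold change 0.70). On chromosome 20, GNAS, the gene of the stimulatory G protein alpha subunit, had 849 and 780 CPM in the double knockdown, against 1309 and 1193 CPM in the PIP4K2A knockdown (log2 fold change -0.61). Outside the 14 regions, 1373 of 21691 tested genes (6.33%) were called, 745 higher and 628 lower. DNA copy number was not measured, and its part in these regional differences was not tested.

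The same 2 lines were compared 6 h after UV in 4 other libraries, which entered the same fit and its shared estimate of the spread. There 4412 genes (19.5%) were called, 2217 (9.81%) higher and 2195 (9.71%) lower in the double knockdown; the split was 1263 to 2430 with ribosomal protein scaling, and a fit of these 4 libraries alone called 439. Of the 1604 genes called in untreated cells, 1588 (99%) had the same sign after UV, 1332 (83%) were called in the same direction, and 0 were called in the opposite one; these 1332 were 30.2% of the UV calls. Over all 11855 genes of at least 5 CPM, 78.2% had the same sign, and the 2 sets of fold changes had a Pearson correlation of 0.80 across genes, which are not independent replicates and share the lines. MAGEA10 (5.10), C3 (-2.86), SEMA3A (-2.44), LAMA3 (-2.41) and PIP4K2B (-2.48) were again among the largest differences. Next to MAGEA10, the largest rises after UV were MIR3648-2 and MIR3648-1 (3.89 each), MT-RNR1 (3.20) and MT-RNR2 (2.87), which were not called in untreated cells. MIR3648-2 had 52 and 56.4 CPM in the double knockdown after UV, against 1.24 and 6.46 CPM in the PIP4K2A knockdown after UV. It also differed between the untreated PIP4K2A knockdown libraries, at 8.31 and 66.3 CPM. Of the 32 mitotic genes, 21 were lower and 0 higher after UV, and of the 20 NF-kB genes 8 were lower and 1 higher; CXCL8 had 1.33 and 1.22 CPM in the double knockdown after UV, against 7.45 and 6.97 CPM in the PIP4K2A knockdown after UV (log2 fold change -2.41; edgeR adjusted p = 1.22e-05). The region medians kept their sign in all 14 regions named above and in 203 of 258 overall.

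**Figure D4:**
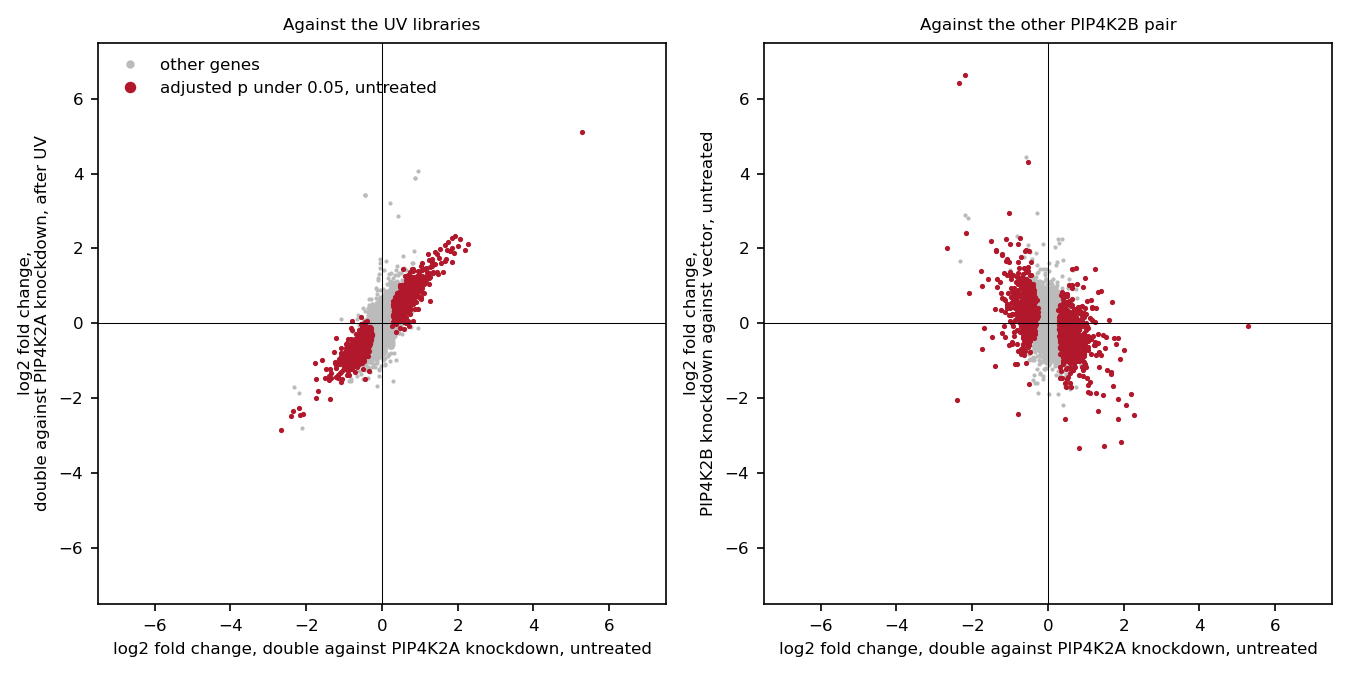
log2 fold change of each gene of at least 5 CPM for the double against the PIP4K2A knockdown, untreated (x axis), set against the same comparison after UV (left) and against the PIP4K2B knockdown over the empty vector, untreated (right); genes called in the untreated comparison are red, and 1 gene lies outside the axes. The correlation across genes is 0.80 on the left and -0.42 on the right, and MAGEA10 stands alone at the far right of both.

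**Figure D5:**
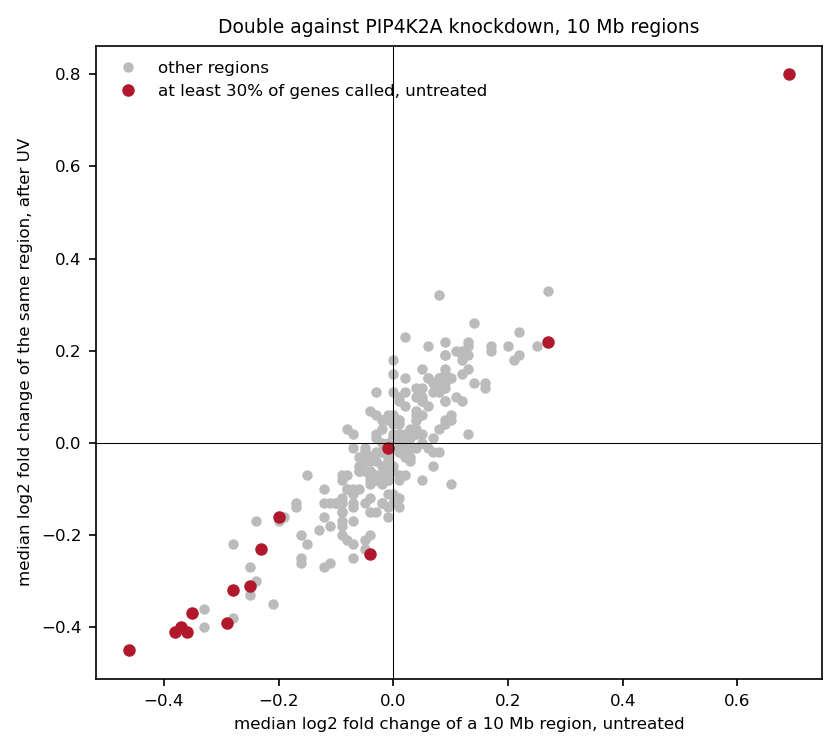
Median log2 fold change of each of 258 regions of 10 Mb, untreated (x axis) and after UV (y axis), double against PIP4K2A knockdown; red points are the 14 regions with at least 30% of their genes called in untreated cells. The region at 0.69 untreated and 0.80 after UV is the end of chromosome 7.

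The test of whether the difference between the lines itself changed with UV called 3 genes (0.0133%), all lower, with 1641 genes at an unadjusted p under 0.05; DESeq2 called 19. SOX9, a transcription factor of cartilage and stem cells, did not differ in untreated cells, with 178 and 190 CPM in the double knockdown and 198 and 193 CPM in the PIP4K2A knockdown. After UV it had 49.3 and 52.3 CPM in the double knockdown, against 148 and 139 CPM in the PIP4K2A knockdown, a difference of log2 fold changes of -1.33. ELL2, a transcription elongation factor, had 86.3 and 78.1 CPM in the untreated double knockdown, against 121 and 106 CPM in the untreated PIP4K2A knockdown, and 22.4 and 23.4 CPM in the double knockdown after UV, against 69 and 66.7 CPM in the PIP4K2A knockdown after UV (difference -1.03). STX3, a membrane fusion protein, had a difference of -0.93. The 2 PIP4K2A knockdown libraries after UV differed from each other by far more than other replicates, with a chi-square per degree of freedom of 94.3, against 1.80 for the double knockdown after UV, 8.72 for the untreated double knockdown and 21.1 for the untreated PIP4K2A knockdown. Without the second of them the interaction test called 1523 genes, and without the first 5.

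PIP4K2B was also knocked down in cells without the PIP4K2A hairpin. Its contrast came from the same fit, but that pair shares no library with the comparison above. Only 1 empty-vector library entered it, assumed to vary like the other groups, since the other had 1.28 M counts and 14.6% of them mitochondrial, against 28 to 39.9 M and 2.20 to 3.43% elsewhere. There 2316 genes (10.2%) were called, 1188 (5.26%) higher and 1128 (4.99%) lower in the PIP4K2B knockdown; with ribosomal protein scaling 1300 were higher and 541 lower. Of the 1604 genes called for the double against the PIP4K2A knockdown, 74 (4.61%) were called in the same direction and 594 (37%) in the opposite one. Over the 11855 genes 33.9% had the same sign, with a correlation across genes of -0.42. PIP4K2B itself moved alike in both, by -2.40 and -2.06. ANXA10 had a log2 fold change of -2.35 for the double against the PIP4K2A knockdown, whereas it was 6.42 for the PIP4K2B knockdown against the vector. GALNT15 was 1.93 in the first pair and -3.17 in the second, and MIAT 1.85 and -2.55; SESN3, CXCL8 and TNFAIP3 were 1.05 and -0.48, -1.57 and 2.32, and -1.10 and 1.66. The test of the difference between the 2 pairs called 3397 genes (15%), 1634 (7.23%) higher and 1763 (7.8%) lower; with ribosomal protein scaling 875 were higher and 1916 lower.

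As a coarse readout of isoform use, the deposited gene length, a mean over isoforms by abundance, was compared. Of 11653 genes averaging 100 counts or more, 0 passed limma's test for the double against the PIP4K2A knockdown, untreated, and 387 had an unadjusted p under 0.05. Without the first or the second double knockdown library, 1 or 2 genes passed. Single exons and isoforms were not analysed here.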

How the data were processed

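RNA of 16 libraries was sequenced by the submitters, and the deposited tables hold expected counts and TPM per gene, with an isoform-weighted length that was used as the deposited length. Per the submitters' processing notes, STAR, SAMtools and RSEM were used with the GRCh38 build; neither the annotation nor whether counting used strand is given in the sources used here. Expected counts, as the authors deposited them, were rounded to whole numbers.

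Genes were tested with edgeR 4.0.16 (TMM factors, filterByExpr with a minimum count of 10, quasi-likelihood test, Benjamini-Hochberg adjusted p under 0.05) in R 4.3.3. A single fit over 15 libraries gave all contrasts (22597 genes); the empty-vector library with 1.278 M counts was left out. Standard errors are the size of the log2 fold change over the square root of F, and CPM are counts over the library total. Lengths were tested with limma 3.58.1 on log2 values, and DESeq2 1.42.0 was an alternative, as were other scalings, filters, a replicate block and leaving out each library. Gene positions and types come from GENCODE 29 on GRCh38. Tables were joined and drawn with Python 3.11.15, pandas 2.3.3, numpy 2.4.6 and matplotlib 3.10.9.

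Genes named were the 3 PIP4K genes, the 12 largest rises and falls past the test that averaged 5 CPM or more and did not overlap between groups, the 5 largest in the other comparisons, and up to 4 members of each of 33 lists (895 genes) or, where none passed, the 2 most abundant. Clone names, LINC numbers and pseudogenes were left out before the largest changes were taken. Further called members are given to complete a list's count. The comparison and the lists were chosen with earlier results of these data known. Some members of the lists are counted but not reported here by name.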

Additional observations from a re-analysis of the deposited data

Results flagged for a closer look

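For 3 genes the difference between the double and the PIP4K2A knockdown changed with UV by the interaction test: SOX9 by -1.33, ELL2 by -1.03 and STX3 by -0.93 on the log2 scale. The 2 PIP4K2A knockdown libraries after UV differ widely from each other, and their part in these values was not tested.

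The difference between the double and the PIP4K2A knockdown was not the same as that between the PIP4K2B knockdown and the vector for 3397 genes. The difference of log2 fold changes was 5.36 for MAGEA10, 4.73 for HEPH, 5.11 for GALNT15 and 4.40 for MIAT. It was -4.67 for C3, -8.77 for ANXA10, -8.84 for H4C4 and -4.56 for SEMA3A. HTR2A, a serotonin receptor, had a difference of 4.75, with 37.5 and 31.3 CPM in the double knockdown, against 13.4 and 11.6 CPM in the PIP4K2A knockdown, and 2 and 1.69 CPM in the PIP4K2B knockdown, against 18.4 CPM in the vector. MAGEB17, another gene of the MAGE family, had a difference of -5.01, with 4.46 and 4.28 CPM in the double knockdown, against 6.65 and 6.43 CPM in the PIP4K2A knockdown, and 5.95 and 7.63 CPM in the PIP4K2B knockdown, against 0.331 CPM in the vector. The vector side of each of these rests on 1 library.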

How the results depend on the processing

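The number of genes called for the untreated double against PIP4K2A knockdown was 1604; it was 1467 in a fit of these groups alone (1263 shared), 1631 with RLE factors, 1678 with DESeq2, 1982 without a count filter, 21 with all 16 libraries, 1049 with ribosomal protein scaling and 583 to 1252 with 1 library left out. Same-numbered libraries of these groups did not deviate together across genes (correlation 0.0626). This value alone cannot decide whether same-numbered libraries were handled as pairs. With a replicate block 1433 genes were called (1401 shared), and 7 of the 122 named or listed genes lost their call. After UV the 4412 calls became 31 with all 16 libraries, 439 with these groups alone and 1923 to 6432 with 1 library left out. The 3 calls of the UV difference became 0 with all 16 libraries, 0 with these groups alone, 1 with ribosomal protein scaling, 243 without a filter, 19 with DESeq2 and 0 to 1523 with 1 library left out; 1523 was without the second PIP4K2A knockdown library after UV. The 2316 calls of PIP4K2B knockdown against vector became 157 with all 16 libraries, 4641 with these groups alone and 1099 to 1463 without 1 PIP4K2B library; no vector library would remain without the one used. The 3397 calls of the difference between the pairs became 155 with all 16 libraries and 2169 to 3539 with 1 library left out; 2261 was without the first PIP4K2B knockdown library and 2169 without the second double knockdown library. For isoform-weighted length 0 to 2 genes passed with 1 library left out. Of 1464 values for the named or listed genes, 1163 kept direction and side of the threshold, 295 kept direction but missed it, 102 of them with all 16 libraries, 6 values of genes not past the test moved, and 0 reversed. The causes were not tested. With 2 libraries a group, calls below a log2 size of 0.27 were not made at this depth.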
